A study of Mus musculus with 9 samples.

Results

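The histone genes of the mouse were followed through a secondary reprogramming system. The set held every gene whose symbol names a core or linker histone, whether it lies in a histone gene cluster or encodes a variant made outside the clusters. Genes were taken by symbol alone. Each was represented by the array row that carries its symbol and no other, and by the row with the highest mean where there were several. This gave 36 histone genes out of 19937 genes with a row of their own. They comprised 25 clustered genes (4 for H1, 3 for H2A, 8 for H2B, 3 for H3 and 7 for H4), 5 variants from outside the clusters (H2ax, H2az1, H2az2, H3f3a and H1f10) and 6 genes known for expression in testis or oocyte (H1f6, H1f7, H1f8, H2ac1, H2bc1 and H2bfm). H4f16 was counted with the clustered H4 genes, although it lies on chromosome 6 and the other clustered genes lie on chromosomes 13 and 3. Another 37 protein-coding histone symbols shared their rows with other genes, and 3 had no row.

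RNA was measured on Affymetrix whole-transcript arrays, 1 per sample, as log2 values. All samples were of the OG2-GFP/Rosa26-M2rtTA strain. The groups were fibroblasts at passage 4 taken from mice made with TSKM iPS cells (n = 3 arrays), TSKM-3D cells, which are such fibroblasts at passage 4 after 3 days of doxycycline (n = 3), and an iPS line induced with Tet1, Sox2, Klf4 and c-Myc (TSKM) at passages 10 to 15 (n = 3). The fibroblasts also carry the inducible factors. Doxycycline came with a switch of medium, to that used for embryonic stem cells, so the TSKM-3D comparison covers both changes. The iPS cells alone grew on mitomycin-treated feeder fibroblasts, and the protocol has a plating step to remove feeders. The iPS group is a single line, and whether a group's 3 arrays stand for separate cultures is not stated. The p-values therefore measure the spread between arrays, which may be technical.

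Histones H2A, H2B, H3 and H4 form the core of the nucleosome, and H1 binds the linker DNA between nucleosomes. The clustered genes lie in several copies per histone, have no introns and are transcribed mainly in S phase, when new DNA has to be packaged. Their messages end in a stem-loop, which the protein encoded by Slbp binds, in place of a poly(A) tail. Variant genes outside the clusters, such as those for H3.3 and H2A.Z, are expressed through the cell cycle and yield histones that are placed independently of replication. Mouse pluripotent cells divide fast and spend much of their cycle in S phase.

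The cell type field of the third fibroblast array names 3-day induced cells, although its title, source and passage name fibroblasts. It correlated at 0.9978 or above with the other fibroblast arrays and at 0.9548 or below with the TSKM-3D arrays (Pearson across genes, which are not independent). Without it, the counts of histone genes called in all 3 comparisons were those given below. Of 10 pluripotency markers 10 were higher in iPS cells than in TSKM-3D cells, against 6.48% of all genes. In TSKM-3D cells against fibroblasts 2 of the 10 (20%), Pou5f1 and Sox2, were higher, against 3.25% of all genes. The other 8 passed neither way. Tet1 went against the TSKM-3D label, at 7.03, 6.98 and 6.92 in TSKM-3D cells against 8.18, 8.07 and 8.05 in fibroblasts, whereas Sox2 read 6.56, 6.69 and 6.38 against 5.13, 5.10 and 5.22 and Myc 11.46, 11.37 and 11.48 against 9.79, 9.80 and 9.92. Klf4 overlapped between these groups. The array does not tell the introduced factors from the endogenous ones.

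Among histone genes, 7 were lower in TSKM-3D cells than in fibroblasts, and 17 were higher in iPS cells than in TSKM-3D cells. Calls required a limma adjusted p (Benjamini-Hochberg) below 0.05 together with a 2-fold or larger change. All 36 histone genes were tested, with no filter on low values. Between TSKM-3D cells and fibroblasts 7 were lower (19.4%) and 0 higher, where 7.58% of all genes were called lower and 3.25% higher. Of these 7, all but H1f2 are also named in rows shared by several genes. Between iPS and TSKM-3D cells 17 histone genes were higher (47.2%) and 1 was lower, against 6.48% and 8.57% of all genes. Between iPS cells and fibroblasts 6 were higher (16.7%) and 3 lower (8.33%), against 7.63% and 13.8% of all genes. With the limma adjusted p alone, the counts become 18 lower and 1 higher (H1f5) in TSKM-3D cells against fibroblasts, 25 higher and 2 lower in iPS against TSKM-3D cells, and 17 higher and 8 lower in iPS cells against fibroblasts. Of all genes, 25.3% and 19.2%, 22.3% and 23.2%, and 25.5% and 29.1% then pass in these directions. By the 2-fold call in either direction 10.8%, 15.1% and 21.5% of all genes were called. The median log2 change of the 36 genes was -0.34, 0.89 and 0.14 in these comparisons, beside 0.05, -0.01 and 0.05 for all genes. Any pair of these comparisons shares the arrays of a group, and each comparison's values are therefore given side by side without a joint test.

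Array by array, the groups separated as follows. All TSKM-3D arrays lay below all fibroblast arrays for 19 histone genes and above them for 1, against 28.3% and 24.8% of all genes. All iPS arrays lay above all TSKM-3D arrays for 25 and below them for 2, against 24.2% and 25.3%. For iPS arrays against fibroblast arrays these numbers were 17 above and 8 below, against 33.1% and 31.8%.

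**Figure D1:**
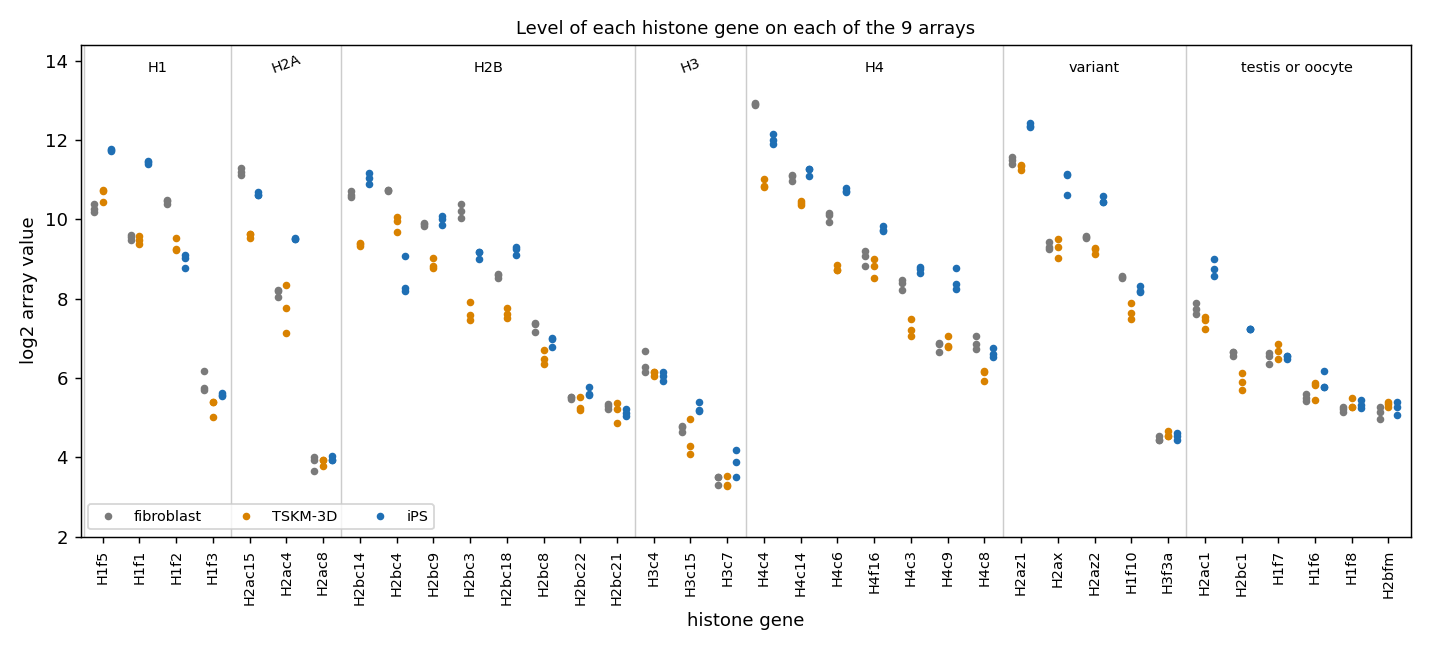
Log2 array value (vertical axis) of each of the 36 histone genes (horizontal axis, grouped by histone and sorted by mean), with 1 point per array, 3 arrays each for fibroblasts, TSKM-3D and iPS cells. TSKM-3D points of H4c4, H2bc3 and H2ac15 lie below both other groups, and iPS points of H1f1, H4c9 and H2ax lie above both.

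Of 48 measured S phase and replication genes 10 were lower (20.8%) and 0 higher in TSKM-3D cells than in fibroblasts, with a median log2 change of -0.49 (38 passed neither way). Of all genes 7.58% were lower and 3.25% higher. Set against TSKM-3D cells, iPS cells had 35 higher (72.9%) and 0 lower, against 6.48% and 8.57% of all genes, with a median of 1.22. In iPS cells against fibroblasts 23 were higher (47.9%) and 1 lower (2.08%), against 7.63% and 13.8% of all genes. The median there was 0.82, beside 0.14 for the histone genes. In these bulk samples, fewer cells in S phase and less histone RNA per cell cannot be told apart. Markers of other cells moved too. The summed linear level of 10 macrophage markers ranged from 605 to 693 in TSKM-3D cells, against 1710 to 1850 in fibroblasts, and lay at 1250 to 1265 in iPS cells. Of these 10, 4 were lower (40%) and 0 higher in TSKM-3D cells, against 7.58% and 3.25% of all genes. The 4 lower ones averaged 5.17 to 5.68 in TSKM-3D cells. The lower quartile of gene means over all 9 arrays was 5.24. Whether these 4 markers were above background was not measured. In iPS cells against fibroblasts 5 were lower (50%) and 1, Cd68, was higher (10%), against 13.8% and 7.63% of all genes. Cd68 averaged 9.59 in iPS cells, against 7.67 in TSKM-3D cells and 7.49 in fibroblasts, and was the only marker of the 10 called between iPS and TSKM-3D cells, so the iPS sum is mostly that of Cd68. The summed level of 12 fibroblast markers was 17201 to 18298 in TSKM-3D cells, against 30696 to 33739 in fibroblasts. Of the 12, 8 were lower (66.7%) and 1 higher (8.33%), against 7.58% and 3.25% of all genes, with a median log2 change of -2.30. The sum was 6950 to 9007 in iPS cells. Against TSKM-3D cells 6 were lower (50%) and 1, Dcn, was higher (8.33%), with a median of -1.16. Of all genes 8.57% were lower and 6.48% higher there. Col1a1 and Col1a2 still averaged 11.47 and 10.96 in iPS cells, although all 12 markers lay below fibroblasts on every iPS array, as did 31.8% of all genes. Feeder RNA in the iPS arrays was not tested. The part of these lists in the histone results was not tested.

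Of the 7 clustered H4 genes 3 were lower (42.9%) in TSKM-3D cells than in fibroblasts, against 7.58% of all genes. In iPS against TSKM-3D cells 4 were higher (57.1%), against 6.48% of all genes. On all 7 every iPS array lay above every TSKM-3D array, where 24.2% of all genes did so. H4c4 read 12.90, 12.93 and 12.88 in fibroblasts, 10.81, 10.84 and 11.01 in TSKM-3D cells and 12.16, 12.01 and 11.90 in iPS cells. Its level in TSKM-3D cells was 4.05-fold below that of fibroblasts (log2 change -2.02 ± 0.09 SE; limma, Benjamini-Hochberg adjusted p = 1.04e-08), and it was higher again in iPS cells by 1.14 ± 0.09 (adjusted p = 5.48e-07). The 3 groups did not overlap, and the iPS level stayed below that of fibroblasts by less than 2-fold (-0.88 ± 0.09), although it is called, at -1.05, with array medians set equal. H4c6 read 9.93, 10.11 and 10.16 in fibroblasts, 8.72, 8.72 and 8.86 in TSKM-3D cells and 10.78, 10.71 and 10.68 in iPS cells. Here the TSKM-3D arrays were the lowest and the iPS arrays the highest, with log2 changes of -1.31 ± 0.08 for TSKM-3D against fibroblasts and 1.96 ± 0.08 for iPS against TSKM-3D (limma, Benjamini-Hochberg adjusted p = 1.93e-07 and 4.2e-09).

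The third H4 gene to fall was H4c3. H4c3 read 8.21, 8.40 and 8.48 in fibroblasts, 7.49, 7.06 and 7.20 in TSKM-3D cells and 8.80, 8.65 and 8.74 in iPS cells. It changed by -1.11 ± 0.11 in TSKM-3D cells against fibroblasts, which becomes -0.98 after quantile normalization and is then not called, and by 1.48 ± 0.11 in iPS against TSKM-3D cells (limma, Benjamini-Hochberg adjusted p = 8.41e-06 and 5.56e-07). H4c9 behaved otherwise. H4c9 read 6.67, 6.88 and 6.86 in fibroblasts, 6.79, 6.80 and 7.05 in TSKM-3D cells and 8.76, 8.24 and 8.36 in iPS cells. Its fibroblast and TSKM-3D arrays overlapped, and all 3 iPS arrays stood above them, by 1.65 ± 0.13 against fibroblasts (limma, Benjamini-Hochberg adjusted p = 4.83e-07). H4c14 and H4f16, which lie outside the main cluster, were not called in any comparison. H4c14 read 10.96, 11.12 and 11.09 in fibroblasts, 10.36, 10.47 and 10.41 in TSKM-3D cells and 11.27, 11.27 and 11.08 in iPS cells. H4f16 read 8.83, 9.07 and 9.20 in fibroblasts, 8.52, 9.01 and 8.83 in TSKM-3D cells and 9.82, 9.71 and 9.73 in iPS cells. H4f16 was 0.97 higher in iPS than in TSKM-3D cells, just inside the 2-fold line, and is called (1.08) without TSKM-3D replicate 2. H4c8 also passed no call, at -0.80 ± 0.11 and 0.55 ± 0.11 in the same comparisons.

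RefSeq promoter sequences (GRCm38.p6, 250 bases before and 50 after the gene start) were found for 31 of the 36 histone genes, 6 of the 7 H4 genes among them. The sequences of H4c4 (chr13:23581318-23581617, plus strand) and H4c6 (chr13:23551619-23551918, minus strand), the H4 genes with the largest falls, are printed 5′ to 3′ on the gene's strand, with GGTCCG, a known element of H4 promoters, in capitals.
H4c4: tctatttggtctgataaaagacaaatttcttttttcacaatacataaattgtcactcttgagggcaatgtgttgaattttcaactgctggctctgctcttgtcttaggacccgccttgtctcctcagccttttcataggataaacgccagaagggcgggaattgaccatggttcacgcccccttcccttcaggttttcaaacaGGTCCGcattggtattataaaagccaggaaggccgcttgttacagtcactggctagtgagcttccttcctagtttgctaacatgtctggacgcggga
H4c6: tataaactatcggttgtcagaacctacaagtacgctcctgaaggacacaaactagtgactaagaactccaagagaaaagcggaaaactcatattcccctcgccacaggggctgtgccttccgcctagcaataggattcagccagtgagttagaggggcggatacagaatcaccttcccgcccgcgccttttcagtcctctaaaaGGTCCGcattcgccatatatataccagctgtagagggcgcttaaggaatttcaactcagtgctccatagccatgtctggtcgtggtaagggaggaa
GGTCCG, searched on both strands, stood in the promoters of 6 of the 6 H4 genes and of 9 of all 31 histone genes with a sequence, against 8.39% of 27025 promoters. It started 47 bases before the gene start in H4c4 and 46 bases before it in H4c6. H4c8, H4c9 and H4f16, which were not called in TSKM-3D cells against fibroblasts, hold it as well. Its part in the changes was not tested. A match describes the letters and not a bound site.

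Of the 8 clustered H2B genes 2 (25%), H2bc3 and H2bc14, were lower in TSKM-3D cells than in fibroblasts, against 7.58% of all genes. In iPS against TSKM-3D cells 4 were higher (50%) and 1 lower (12.5%), against 6.48% and 8.57% of all genes. H2bc3 (formerly Hist1h2bb) showed the largest fall of any of the 36 genes. H2bc3 read 10.03, 10.38 and 10.21 in fibroblasts, 7.46, 7.60 and 7.92 in TSKM-3D cells and 9.17, 9.17 and 8.99 in iPS cells. In TSKM-3D cells it was 5.86-fold below fibroblasts (log2 change -2.55 ± 0.13 SE; limma, Benjamini-Hochberg adjusted p = 2.76e-08). In iPS cells it was 1.45 ± 0.13 above TSKM-3D cells and -1.10 ± 0.13 relative to fibroblasts (limma, Benjamini-Hochberg adjusted p = 1.58e-06 and 1.28e-05). The last value becomes -0.95 after quantile normalization and is then not called. H2bc14 read 10.56, 10.62 and 10.70 in fibroblasts, 9.40, 9.32 and 9.37 in TSKM-3D cells and 11.17, 11.05 and 10.88 in iPS cells. It changed by -1.26 ± 0.09 in TSKM-3D cells against fibroblasts and by 1.67 ± 0.09 in iPS against TSKM-3D cells (limma, Benjamini-Hochberg adjusted p = 3.18e-07 and 1.93e-08), with no overlap between any of the groups.

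Further H2B genes lay at the edge of the call. H2bc18 read 8.59, 8.62 and 8.52 in fibroblasts, 7.51, 7.76 and 7.60 in TSKM-3D cells and 9.30, 9.09 and 9.26 in iPS cells. H2bc9 read 9.82, 9.89 and 9.91 in fibroblasts, 9.02, 8.82 and 8.78 in TSKM-3D cells and 10.08, 10.02 and 9.86 in iPS cells. Both had all TSKM-3D arrays below all fibroblast arrays, with changes of -0.95 ± 0.09 and -0.998 ± 0.09 that stop short of 2-fold. H2bc9 is called when fibroblast replicate 1 or TSKM-3D replicate 1 is left out, at -1.02 and -1.07. H2bc18 is called without TSKM-3D replicate 2, at -1.02. With array medians set equal both are called, at -1.01 for H2bc18 and -1.05 for H2bc9. In iPS against TSKM-3D cells they were higher by 1.59 ± 0.09 and 1.11 ± 0.09 (limma, Benjamini-Hochberg adjusted p = 3.33e-08 and 7.24e-07). With array medians set equal the rise of H2bc9 becomes 0.995 and is not called. H2bc8 changed by -0.79 ± 0.11 in TSKM-3D cells against fibroblasts with no call, and H2bc22 and H2bc21 by -0.19 ± 0.10 and -0.14 ± 0.12, with overlapping arrays.

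H2bc4 (formerly Hist1h2bc) ran against the other H2B genes. H2bc4 read 10.75, 10.72 and 10.74 in fibroblasts, 9.96, 9.67 and 10.06 in TSKM-3D cells and 9.07, 8.27 and 8.19 in iPS cells. Each group lay below the one before it with no overlap, and the iPS arrays were the most spread. It was the only 1 of the 36 histone genes called lower in iPS than in TSKM-3D cells (log2 change -1.39 ± 0.19; limma, Benjamini-Hochberg adjusted p = 8.23e-05), and it was 4.68-fold below fibroblasts (-2.23 ± 0.19; adjusted p = 1.04e-06). Its change in TSKM-3D cells against fibroblasts was -0.83 ± 0.19, with no call.

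Known H2B promoters carry an octamer element that POU-domain factors bind. Its last 7 letters, TTTGCAT, are in capitals in the promoters of H2bc3 (chr13:23746484-23746783, plus strand) and H2bc14 (chr13:21721794-21722093, plus strand), shown because these are the H2B genes called in both steps.
H2bc3: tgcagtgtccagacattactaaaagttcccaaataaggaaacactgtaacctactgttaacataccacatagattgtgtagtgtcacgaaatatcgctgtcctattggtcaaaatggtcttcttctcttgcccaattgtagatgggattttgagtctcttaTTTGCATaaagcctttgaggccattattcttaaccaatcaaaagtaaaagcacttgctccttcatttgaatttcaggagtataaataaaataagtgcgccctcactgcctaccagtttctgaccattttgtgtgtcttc
H2bc14: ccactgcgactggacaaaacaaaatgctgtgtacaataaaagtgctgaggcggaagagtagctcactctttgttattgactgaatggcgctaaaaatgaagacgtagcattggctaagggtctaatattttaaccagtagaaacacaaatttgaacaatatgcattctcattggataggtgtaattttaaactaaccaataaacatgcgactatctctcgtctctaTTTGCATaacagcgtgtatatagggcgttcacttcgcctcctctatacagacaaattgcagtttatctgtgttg
Searched on both strands, TTTGCAT stood in 4 of 6 clustered H2B promoters (H2bc3, H2bc8, H2bc14 and H2bc18), in 2 of 3 clustered H2A promoters (H2ac4 and H2ac8) and in 9 of 31 histone promoters in all, against 4.59% of 27025 promoters. H2bc9 rose in iPS against TSKM-3D cells without these letters in this window, and H2bc8 holds them and was not called. The part of these letters in the changes was not tested. The element started 89 bases before the gene start in H2bc3 and 24 bases before it in H2bc14.

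Of 3 clustered H2A genes, H2ac15 dipped and H2ac4 was higher in iPS cells. H2ac15 read 11.12, 11.30 and 11.18 in fibroblasts, 9.62, 9.62 and 9.53 in TSKM-3D cells and 10.69, 10.61 and 10.61 in iPS cells. It was 3.05-fold lower in TSKM-3D cells than in fibroblasts (log2 change -1.61 ± 0.08 SE; limma, Benjamini-Hochberg adjusted p = 1.89e-08) and 1.05 ± 0.08 higher in iPS than in TSKM-3D cells, which becomes 0.93, not called, with array medians set equal. H2ac4 read 8.04, 8.21 and 8.18 in fibroblasts, 7.75, 7.13 and 8.34 in TSKM-3D cells and 9.51, 9.51 and 9.52 in iPS cells. The TSKM-3D arrays of H2ac4 were spread over more than 1 log2 unit and overlapped those of fibroblasts, and the iPS arrays lay above both, by 1.77 ± 0.22 over TSKM-3D cells and 1.37 ± 0.22 over fibroblasts (limma, Benjamini-Hochberg adjusted p = 3.3e-05 and 0.000213). H2ac8 read 3.65, 4.00 and 3.92 in fibroblasts, 3.92, 3.77 and 3.92 in TSKM-3D cells and 3.92, 4.03 and 3.92 in iPS cells, below the lower quartile of gene means (5.24). Its value was the same, 3.92, on 5 of the 9 arrays.

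The 3 clustered H3 genes with a row of their own were not called in any comparison. H3c4 read 6.69, 6.16 and 6.26 in fibroblasts, 6.16, 6.06 and 6.16 in TSKM-3D cells and 6.16, 5.93 and 6.06 in iPS cells. H3c15 read 4.79, 4.76 and 4.64 in fibroblasts, 4.08, 4.27 and 4.98 in TSKM-3D cells and 5.20, 5.18 and 5.39 in iPS cells. H3c7 read 3.32, 3.51 and 3.51 in fibroblasts, 3.29, 3.29 and 3.52 in TSKM-3D cells and 4.18, 3.88 and 3.51 in iPS cells. H3c4 had the same value, 6.16, on 4 arrays of 3 groups, and H3c7 and H3c15 lay below the lower quartile of gene means. H3c15 was 0.81 ± 0.18 higher in iPS than in TSKM-3D cells, and is called (1.08) without TSKM-3D replicate 3. Other canonical H3 genes are named in shared rows.

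Clustered linker histone genes went in opposite directions. H1f1 and H1f5 were higher in iPS cells than in either other group, H1f2 was lower in both later groups than in fibroblasts, and H1f3 was not called. H1f1 read 9.55, 9.59 and 9.48 in fibroblasts, 9.36, 9.47 and 9.58 in TSKM-3D cells and 11.43, 11.47 and 11.39 in iPS cells. Its TSKM-3D and fibroblast arrays overlapped (-0.07 ± 0.08), and iPS cells were 3.89-fold above TSKM-3D cells (1.96 ± 0.08 SE; limma, Benjamini-Hochberg adjusted p = 2.47e-09). H1f5 read 10.18, 10.26 and 10.39 in fibroblasts, 10.71, 10.43 and 10.75 in TSKM-3D cells and 11.77, 11.75 and 11.72 in iPS cells. It was higher by 1.11 ± 0.10 in iPS than in TSKM-3D cells and by 1.47 ± 0.10 in iPS cells than in fibroblasts (limma, Benjamini-Hochberg adjusted p = 1.36e-06 and 8.02e-08). The iPS against TSKM-3D value becomes 0.997, not called, with array medians set equal. H1f2 read 10.46, 10.38 and 10.48 in fibroblasts, 9.21, 9.26 and 9.52 in TSKM-3D cells and 9.03, 8.77 and 9.10 in iPS cells. H1f2 (formerly Hist1h1c) changed by -1.10 ± 0.11 in TSKM-3D cells and by -1.47 ± 0.11 in iPS cells against fibroblasts (limma, Benjamini-Hochberg adjusted p = 5.1e-06 and 2.1e-07). The TSKM-3D value is -0.97, not called, after quantile normalization. H1f3 read 5.70, 5.74 and 6.18 in fibroblasts, 5.40, 5.01 and 5.40 in TSKM-3D cells and 5.55, 5.62 and 5.58 in iPS cells.

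The promoters of H1f2 (chr13:23738557-23738856, plus strand) and H1f5 (chr13:21780576-21780875, minus strand) are shown because the genes moved apart. Capitals mark AAACACA, the known upstream box of H1 promoters.
H1f2: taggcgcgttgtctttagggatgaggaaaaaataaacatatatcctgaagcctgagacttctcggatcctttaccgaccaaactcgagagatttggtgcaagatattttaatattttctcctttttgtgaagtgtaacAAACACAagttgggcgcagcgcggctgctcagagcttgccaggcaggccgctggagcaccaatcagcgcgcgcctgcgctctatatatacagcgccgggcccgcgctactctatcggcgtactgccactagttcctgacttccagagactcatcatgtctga
H1f5: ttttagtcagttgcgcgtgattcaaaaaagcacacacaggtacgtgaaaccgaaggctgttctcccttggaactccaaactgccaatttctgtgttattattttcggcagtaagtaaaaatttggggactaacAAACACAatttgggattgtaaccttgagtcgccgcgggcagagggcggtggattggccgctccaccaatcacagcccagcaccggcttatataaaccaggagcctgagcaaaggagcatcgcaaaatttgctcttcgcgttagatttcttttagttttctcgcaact
The box started 112 bases before the gene start in H1f2 and 117 bases before it in H1f5. On either strand it stood in 3 of 4 clustered H1 promoters (H1f2, H1f3 and H1f5), in 9 of 31 histone promoters and in 7.14% of all promoters. These letters are not in the H1f1 window. Both the gene that fell and a gene that rose hold the box, and its part in these changes was not tested.

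**Figure D2:**
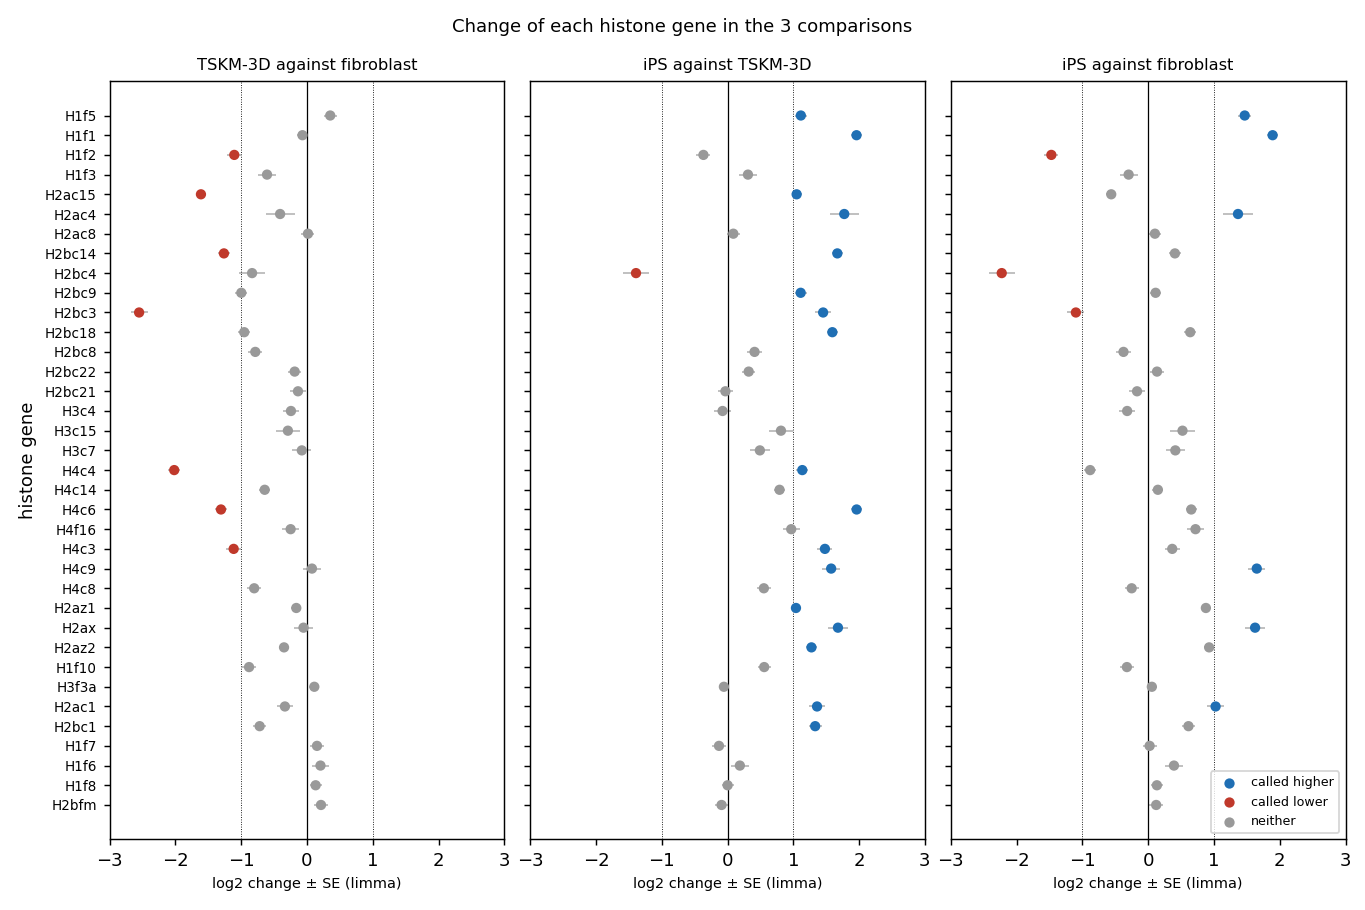
Log2 change ± SE from limma (horizontal axis) of each of the 36 histone genes (vertical axis) in TSKM-3D against fibroblast, iPS against TSKM-3D and iPS against fibroblast. Dotted lines mark 2-fold, and coloured points are called (7 lower and 0 higher, 17 higher and 1 lower, and 6 higher and 3 lower).

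Among the 5 variants from outside the clusters, 0 were called in TSKM-3D cells against fibroblasts, where 7.58% of all genes were lower and 3.25% higher. H1f10, H2az1 and H2az2 lay below fibroblasts on every array, as did 28.3% of all genes. Of these, 2 had an adjusted p under 0.05 in limma, as 25.3% of all genes had in this direction. In iPS against TSKM-3D cells 3 were higher (60%, against 6.48% of all genes). H2ax read 9.30, 9.42 and 9.24 in fibroblasts, 9.31, 9.02 and 9.49 in TSKM-3D cells and 10.61, 11.10 and 11.14 in iPS cells. The product of H2ax is the H2A form that is phosphorylated at DNA breaks. Its fibroblast and TSKM-3D arrays overlapped, and iPS cells stood 1.68 ± 0.15 above TSKM-3D cells and 1.63 ± 0.15 above fibroblasts (limma, Benjamini-Hochberg adjusted p = 1.9e-06 and 1.73e-06). H2az1 and H2az2 encode the 2 forms of H2A.Z, found at promoters. H2az1 read 11.40, 11.56 and 11.49 in fibroblasts, 11.35, 11.25 and 11.36 in TSKM-3D cells and 12.31, 12.36 and 12.41 in iPS cells. H2az2 read 9.56, 9.58 and 9.53 in fibroblasts, 9.13, 9.24 and 9.26 in TSKM-3D cells and 10.59, 10.43 and 10.44 in iPS cells. In iPS against TSKM-3D cells they were higher by 1.04 ± 0.08 and 1.28 ± 0.08 (limma, Benjamini-Hochberg adjusted p = 3.41e-07 and 6.36e-08). For H2az1 this is 0.96 after quantile normalization and 0.92 with array medians set equal, neither called, while its second row gave 1.21. Against fibroblasts the iPS values were 0.88 and 0.93 higher, inside the 2-fold line, and that of H2az2 is called, at 1.05, after quantile normalization.

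The remaining variants were not called. H1f10 read 8.57, 8.55 and 8.53 in fibroblasts, 7.63, 7.89 and 7.49 in TSKM-3D cells and 8.17, 8.32 and 8.19 in iPS cells. H1f10, a linker variant also named H1x, was lowest in TSKM-3D cells (log2 change -0.88 ± 0.10 against fibroblasts). H3f3a read 4.55, 4.45 and 4.43 in fibroblasts, 4.55, 4.55 and 4.67 in TSKM-3D cells and 4.55, 4.60 and 4.45 in iPS cells. This row lay below the lower quartile of gene means. Other rows name H3f3a together with Gm12657, and their means over all arrays were far higher, at 10.56 to 11.15. By a wider listing of variants, Macroh2a2, Macroh2a1 and H2aj were looked at as well, although their symbols lie outside the set. Macroh2a2, an H2A variant linked to repressed chromatin, read 9.45, 9.68 and 9.70 in fibroblasts, 7.95, 7.76 and 8.07 in TSKM-3D cells and 7.59, 7.69 and 7.57 in iPS cells, a change of -1.69 ± 0.10 and -2.00 ± 0.10 against fibroblasts (limma, Benjamini-Hochberg adjusted p = 9.87e-08 and 8.23e-09). Macroh2a1 changed by 0.21 or less in size. H2aj was higher in TSKM-3D cells than in fibroblasts, by 1.32 ± 0.11.

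Of the 6 testis or oocyte genes, H2ac1 and H2bc1 (33.3%) were higher in iPS than in TSKM-3D cells, against 6.48% of all genes. The other 4 were not called in any comparison. H2ac1 and H2bc1 are neighbours and encode TH2A and TH2B, known from mouse testis and oocyte and reported to aid reprogramming in mouse cells. H2ac1 read 7.61, 7.74 and 7.89 in fibroblasts, 7.47, 7.23 and 7.53 in TSKM-3D cells and 9.01, 8.74 and 8.57 in iPS cells. H2bc1 read 6.56, 6.65 and 6.65 in fibroblasts, 5.69, 5.90 and 6.11 in TSKM-3D cells and 7.24, 7.23 and 7.24 in iPS cells. The iPS arrays lay above both other groups for each gene. The changes in iPS against TSKM-3D cells were 1.36 ± 0.12 and 1.33 ± 0.10 (limma, Benjamini-Hochberg, adjusted p = 2.28e-06 for H2ac1 and adjusted p = 4.09e-07 for H2bc1). Against fibroblasts H2ac1 was higher by 1.03 ± 0.12 (limma, Benjamini-Hochberg adjusted p = 1.88e-05), which is 0.96 without fibroblast replicate 1, 0.91 without iPS replicate 1 and 0.86 with array medians set equal, none of them called. H1f6, H1f7, H1f8 and H2bfm changed by 0.39 or less in size in the 3 comparisons. Coding sequences of H2A and H2B copies are near-identical in places, and signal from other copies in these rows was not tested.

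A further 28 array rows carried several symbols with a histone among them, and 20 of the 36 genes are also named in such rows. These rows were read from a fit over all 34760 array rows, in which 6.23% were called lower and 4.09% higher in TSKM-3D cells against fibroblasts. Of the 28 rows 12 were lower and 0 higher. Set against TSKM-3D cells, iPS cells had 11 rows higher and 0 lower, against 6.99% and 6.17% of all rows. In iPS cells against fibroblasts 0 were called by limma in either direction, where 9.68% of all rows were higher and 10.3% lower. There, 0.98 was the largest change in size. Of 9 rows shared by 12 H3 genes, 4 were lower in TSKM-3D cells, with a median of -0.98, and 4 were higher in iPS against TSKM-3D cells, with a median of 0.76. Of 6 rows shared by 14 or 15 H2B symbols 5 were lower in TSKM-3D cells and 4 higher in iPS against TSKM-3D cells, with medians of -1.32 and 1.42. Of 5 shared H4 rows 2 were lower and 2 higher in the same comparisons. The row shared by 19 symbols, mostly H2A genes, changed by -2.29 in TSKM-3D cells and by 1.64 in iPS against TSKM-3D cells.

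H3.3 rows were not called lower in TSKM-3D cells. H3f3a and H3f3b encode the same replication-independent H3.3 protein, and 6 rows name them together with the pseudogene Gm6485 (H3f3b) or with Gm12657, a further H3 gene (H3f3a). None was called, and their median change in TSKM-3D cells against fibroblasts was 0.51. In the 2 rows of H3f3b with Gm6485 the TSKM-3D level was higher by 0.47 and 0.55 (limma over all rows, Benjamini-Hochberg adjusted p = 0.00375 and 0.00046) and the iPS level by 0.98 and 0.76 against fibroblasts (adjusted p = 2.17e-05 and 3.12e-05). The 4 rows of H3f3a with Gm12657 disagreed, from -0.36 to 0.74 in TSKM-3D cells against fibroblasts. Which of the paired genes gave the signal was not tested.

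**Figure D3:**
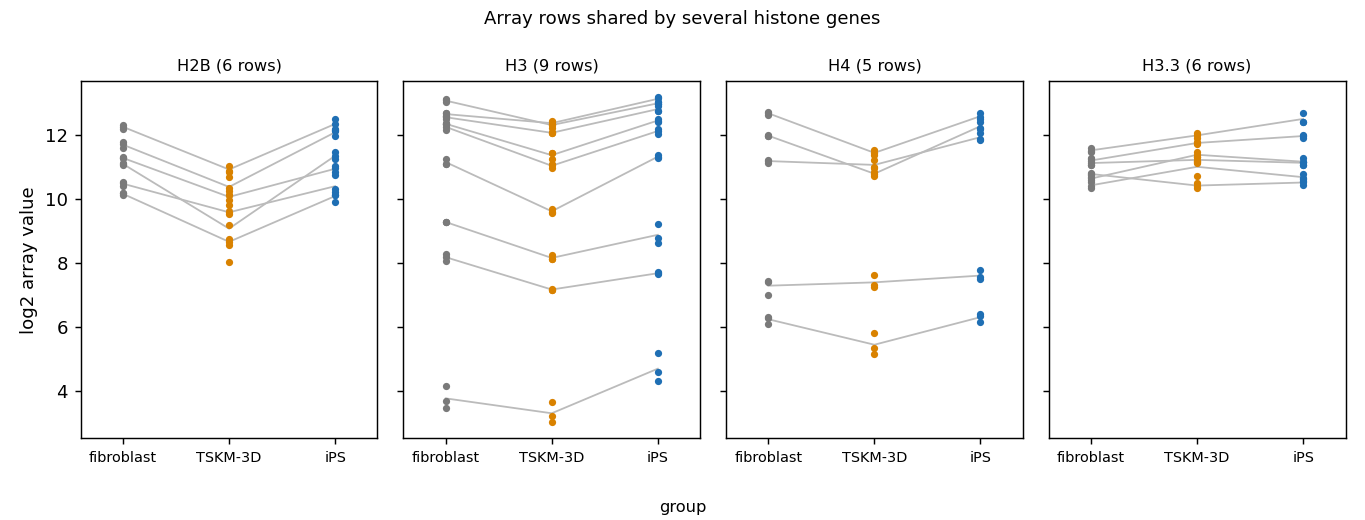
Log2 array value (vertical axis) of array rows that several histone genes share, by group (horizontal axis: fibroblast, TSKM-3D, iPS), in panels for H2B (6 rows), H3 (9), H4 (5) and H3.3 (6). Points are arrays and grey lines join the means of each row; 5 H2B rows, 4 H3 rows and 2 H4 rows were called lower in TSKM-3D cells than in fibroblasts, and 0 H3.3 rows were.

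Genes that make, escort and place histones were taken as a list of 41, of which 39 had a row. In TSKM-3D cells against fibroblasts 4 were lower and 1 higher, 34 passed neither way and the median was -0.13. These shares, 10.3% lower and 2.56% higher, lie near the 7.58% and 3.25% of all genes. Set against TSKM-3D cells, iPS cells had 9 higher (23.1%, against 6.48% of all genes) and 0 lower, with a median of 0.37, and in iPS cells against fibroblasts 7 were higher (17.9%, against 7.63%) and 0 lower. Npat is the S phase activator of clustered histone genes. Npat read 8.56, 8.56 and 8.56 in fibroblasts, 7.38, 6.68 and 7.45 in TSKM-3D cells and 8.43, 8.45 and 8.33 in iPS cells. It changed by -1.39 ± 0.16 in TSKM-3D cells against fibroblasts and by 1.23 ± 0.16 in iPS against TSKM-3D cells (limma, Benjamini-Hochberg adjusted p = 2.52e-05 and 5.43e-05), and TSKM-3D replicate 2 read the lowest. Casp8ap2 (named after its values were seen), a partner of Npat, moved likewise, by -1.21 ± 0.12 and 1.01 ± 0.12. Slbp, whose product binds the stem-loop, was not lower in TSKM-3D cells. Slbp read 8.32, 8.27 and 8.89 in fibroblasts, 9.29, 8.87 and 9.40 in TSKM-3D cells and 10.09, 10.15 and 10.27 in iPS cells. It was higher by 1.68 ± 0.17 in iPS cells than in fibroblasts (limma, Benjamini-Hochberg adjusted p = 4.23e-06). Zfp473, a factor of the stem-loop processing machinery, was higher by 1.47 ± 0.13 in iPS than in TSKM-3D cells. It read 5.11, 5.35 and 4.84 in TSKM-3D cells, near the lower quartile of gene means (5.24), and 6.70, 6.67 and 6.33 in iPS cells.

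Several chaperones of newly made H3 and H4 were higher in iPS cells. Nasp read 7.79, 7.87 and 7.92 in fibroblasts, 8.41, 7.998 and 8.38 in TSKM-3D cells and 10.70, 10.52 and 10.63 in iPS cells. Nasp, which guards the H3 and H4 supply, was higher by 2.35 ± 0.11 in iPS than in TSKM-3D cells (limma, Benjamini-Hochberg adjusted p = 7.9e-09), with the iPS arrays far above both other groups. Hat1 read 9.64, 9.81 and 9.91 in fibroblasts, 9.94, 9.24 and 9.90 in TSKM-3D cells and 12.12, 11.98 and 12.04 in iPS cells. Hat1, the acetyltransferase of new H4, was higher by 2.35 ± 0.16 (limma, Benjamini-Hochberg adjusted p = 1.92e-07). Chaf1a and Chaf1b, subunits of the factor that loads H3 and H4 behind the replication fork, were higher by 1.21 ± 0.11 and 2.37 ± 0.08. Chaf1b and Asf1b, an H3 and H4 chaperone, were lower in TSKM-3D cells than in fibroblasts, with log2 changes of -1.06 ± 0.08 and -1.25 ± 0.08 (limma, Benjamini-Hochberg adjusted p = 1.06e-06 and 2.2e-07). In iPS cells Asf1b read 0.88 ± 0.08 above TSKM-3D cells and -0.37 ± 0.08 relative to fibroblasts, neither called. All iPS arrays lay above all fibroblast arrays for 19 of the 39 list genes and below them for 10, Asf1b and Ipo4 among these. Of all genes 33.1% and 31.8% did so.

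Hira and Atrx, which act in H3.3 placement, were not called. They read higher than in fibroblasts by 0.49 ± 0.09 and 0.56 ± 0.11 in TSKM-3D cells, and by 0.88 ± 0.09 and 0.996 ± 0.11 in iPS cells. Daxx, the partner of Atrx, was higher by 1.27 ± 0.08 in iPS than in TSKM-3D cells (limma, Benjamini-Hochberg adjusted p = 6.36e-08). Anp32e, which removes H2A.Z, was the only list member called higher in TSKM-3D cells than in fibroblasts. Of the 39 list genes, 7 had all TSKM-3D arrays above all fibroblast arrays and 18 had them below, against 24.8% and 28.3% of all genes. Anp32e read 8.65, 8.70 and 8.67 in fibroblasts, 10.02, 9.89 and 10.07 in TSKM-3D cells and 10.40, 10.21 and 10.42 in iPS cells. Its change was 1.32 ± 0.08 in TSKM-3D cells and 1.68 ± 0.08 in iPS cells against fibroblasts (limma, Benjamini-Hochberg adjusted p = 1.59e-07 and 7.95e-09). Cenpa, the H3 variant of centromeres, was higher by 1.05 ± 0.08 in iPS than in TSKM-3D cells.

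**Figure D4:**
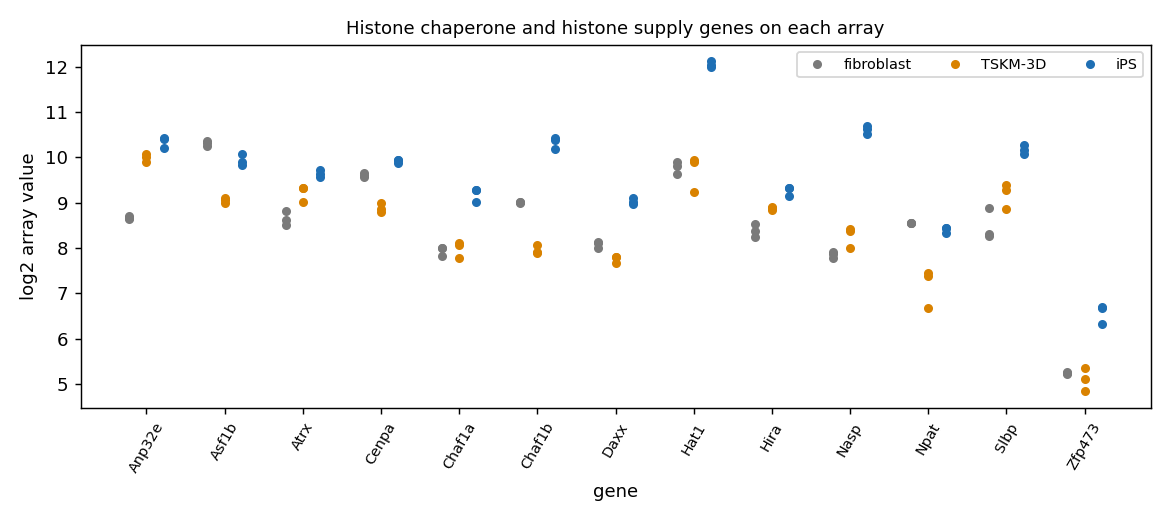
Log2 array value (vertical axis) of histone chaperone and supply genes (horizontal axis), with 1 point per array for fibroblasts, TSKM-3D and iPS cells. TSKM-3D points of Npat, Asf1b and Chaf1b lie below both other groups, and iPS points of Nasp, Hat1 and Chaf1b lie above both.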

How the data were processed

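Total RNA was biotin-labelled with a whole-transcript terminal kit and hybridised to 9 arrays, per the labels. The priming of the cDNA, on which messages without a poly(A) tail depend, is not stated. The authors deposited log2 expression values for 34760 rows. Their background correction, normalization and software are not stated. Array medians lay between 6.01 and 6.23, and no further scaling was applied. The number of arrays limits the precision.

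Rows were named by the platform's probe table: 21640 rows had 1 symbol, 1321 several and 11799 none. Each of 19937 genes was represented by its brightest row, and 36 were histone genes. Symbols were brought up to date by gene identifier (RefSeq, GRCm38.p6). The histone genes, gene lists and named genes were chosen with earlier results of these data known. Named were, per class, the genes with the highest mean or the largest called change, and all variants.

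One limma model (version 3.58.1, R 4.3.3; lmFit and eBayes) over all genes held all 9 arrays. Calls needed a Benjamini-Hochberg adjusted p under 0.05 and a 2-fold change. All 2-fold changes passed the adjusted p. Alternatives were 2 scalings, the row choice, all rows, a filter on dim genes, the call rule, the prior, the arrays fitted, a replicate block and leaving out each array.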

Additional observations from a re-analysis of the deposited data

How the results depend on the processing

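The 36 histone genes gave 2034 log2 changes under 19 alternatives: 1970 stayed on their side of the call, 11 lost it, 53 gained it and 0 reversed. Asking for the adjusted p alone changed the counts most, to 1 higher and 18 lower in TSKM-3D cells against fibroblasts, 25 higher and 2 lower in iPS against TSKM-3D cells, and 17 higher and 8 lower in iPS cells against fibroblasts, where 19.2%, 25.3%, 22.3%, 23.2%, 25.5% and 29.1% of all genes then passed in these directions. Leaving out each array in turn gave 7 to 8 lower and 0 higher, 17 to 18 higher and 1 lower, and 5 to 6 higher and 3 lower. Quantile normalization gave 5 lower, 16 higher and 1 lower, and 7 higher and 2 lower. With array medians set equal the counts were 9 lower, 13 higher and 1 lower, and 5 higher and 4 lower. In iPS cells against fibroblasts the share of calls that were higher was thus 66.7% as deposited, 77.8% after quantile normalization and 55.6% with medians set equal. Equal medians move the median gene to -0.13 for iPS against TSKM-3D cells and to -0.12 for iPS cells against fibroblasts.

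The replicate numbers of the titles showed no visible pairing of the arrays. Deviations of same-numbered arrays from their group means correlated at -0.10 to 0.06 across genes, and those of differently numbered arrays at -0.13 to 0.13. With 3 arrays per group this cannot establish that the arrays were unpaired. With the replicate number as a block the counts were 7 lower and 0 higher, 17 higher and 1 lower, and 6 higher and 3 lower, the same as without the block. Dim rows limit what can be seen: 6 of 36 histone genes lay below the lower quartile of gene means, and signal over background was not measured.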

Other observations

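Among the genes counted as clustered, 20 lie on chromosome 13, 4 on chromosome 3 and H4f16 alone on chromosome 6. In TSKM-3D cells against fibroblasts 7 of the 20 were lower (35%), against 7.58% of all genes, with a median log2 change of -0.79. On chromosome 3, 0 of the 4 were called by limma, with a median of -0.47. There 2 of the 4 (H2bc18 and H4c14) lay below fibroblasts on every array, as did 28.3% of all genes. In iPS against TSKM-3D cells 11 of the 20 (55%) and 1 of the 4 (25%) were higher, against 6.48% of all genes. The difference between the clusters was not tested, and 4 genes are too few to compare.

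CCAAT, searched on both strands, stood in the promoters of all 4 clustered H1 genes, all 3 H2A, all 6 H2B and both H3 genes with a sequence, but in 2 of 6 H4 promoters, against 37.9% of all 27025 promoters. TATAAA stood in 15 of 31 histone promoters, in 0 of 4 variant promoters and in 14.2% of all promoters.

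Exactly repeated values among the 9 arrays occurred for 11 of the 36 histone genes (30.6%) and for 39.0% of all genes. Among 16 histone genes that no shared row names, 1 (H1f2, 6.25%) was lower in TSKM-3D cells than in fibroblasts, against 7.58% of all genes. In iPS against TSKM-3D cells 6 of the 16 (37.5%) were higher, against 6.48% of all genes. Among the 20 that shared rows also name, 6 (30%) were lower and 11 (55%) higher in the same comparisons.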
